A study of Mus musculus with 60 samples.

Results

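Neutrophil granule genes code for the proteins that neutrophils pack into their granules and cytosol, and 10 of them were examined here: Elane, Mpo, Camp, Ltf, Lcn2, Ngp, S100a8, S100a9, Retnlg and Cxcr2. They were chosen by name, with earlier results of these data known. A gene was measured where a probe set of the array named it alone. This held for 9 of the 10 genes, each with 1 probe set of the 45101 in the table, and Retnlg was not analysed here. The study set lymphomas of early onset against lymphomas of late onset in mice that carry a Myc transgene, on Affymetrix Mouse430_2 arrays with 1 tumour or tissue each. Lymphomas came from Em-myc transgenic (Eµ-myc) mice, in which the immunoglobulin heavy chain enhancer drives Myc in B cells. There were 25 early lymphomas with onset at 32 to 76 days and 25 late lymphomas with onset at 253 to 649 days. Wildtype mice gave 9 normal lymph nodes, 6 of them from mice under 100 days old and 3 from older mice (38 to 438 days over all 9), and 1 normal spleen at 304 days. Mouse, litter and batch are not given per array, so the p-values reflect differences among these arrays, which may be partly technical. A description text in the labels that speaks of embryos goes against every other label and was not used.

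Neutrophils mature in bone marrow in steps, and their granules are filled in the same order. Promyelocytes make the primary (azurophil) granules with Mpo and Elane, the next stages make the secondary (specific) granules with Ltf, Camp, Lcn2 and Ngp, and late stages gain surface receptors such as Cxcr2, which calls mature cells out of the marrow. Transcription factors of the C/EBP family, PU.1 (Spi1) and Runx1 act on many of these genes. The spleen of adult mice still makes blood cells in its red pulp, while a lymph node does not.

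The promoters of the 10 genes are shown for 4 members (2 of secondary granules, 1 of primary granules and 1 of the cytosol), because the members varied together over the tumours. The sequences are RefSeq's, the 250 bases before the annotated start on GRCm38.p6, written 5′ to 3′ along the gene, with matches to 3 short motifs on either strand in capitals: TTGCNNAA (a C/EBP motif), GAGGAA (a PU.1 core) and TGTGGT (a Runx core).
Ngp, chr9:110419558-110419807, plus strand: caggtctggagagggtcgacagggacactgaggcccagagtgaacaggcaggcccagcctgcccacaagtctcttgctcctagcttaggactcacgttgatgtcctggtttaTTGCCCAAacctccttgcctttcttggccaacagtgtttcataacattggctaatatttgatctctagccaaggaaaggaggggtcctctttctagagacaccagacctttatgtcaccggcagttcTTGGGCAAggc
Ltf, chr9:111019042-111019291, plus strand: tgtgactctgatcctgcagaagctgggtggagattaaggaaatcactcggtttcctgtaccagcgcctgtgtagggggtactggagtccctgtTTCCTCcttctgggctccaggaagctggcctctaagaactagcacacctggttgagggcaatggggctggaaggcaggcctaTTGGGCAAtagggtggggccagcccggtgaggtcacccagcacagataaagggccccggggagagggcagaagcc
Mpo, chr11:87793534-87793783, plus strand: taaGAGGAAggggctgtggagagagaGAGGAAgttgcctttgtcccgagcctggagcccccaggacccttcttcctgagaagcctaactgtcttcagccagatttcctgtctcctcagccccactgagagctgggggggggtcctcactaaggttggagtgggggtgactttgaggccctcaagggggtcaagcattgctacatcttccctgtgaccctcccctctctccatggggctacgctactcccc
S100a9, chr3:90695722-90695971, minus strand: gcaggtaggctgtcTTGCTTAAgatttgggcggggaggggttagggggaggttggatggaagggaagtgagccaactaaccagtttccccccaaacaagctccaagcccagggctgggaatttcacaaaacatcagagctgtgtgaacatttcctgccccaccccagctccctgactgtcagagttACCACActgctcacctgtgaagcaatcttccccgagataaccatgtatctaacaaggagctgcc
Ngp held 2 C/EBP motifs, whose first bases lay 138 and 11 bases before the start. Ltf held 1 C/EBP motif at 75 bases and 1 PU.1 core at 157 bases, Mpo held 2 PU.1 cores at 247 and 224 bases, and S100a9 held 1 C/EBP motif at 236 bases and 1 Runx core at 64 bases. Over all 10 genes, Retnlg included, the C/EBP motif was in 5, the PU.1 core in 6 and the Runx core in 1. Of all 32851 promoters in the table, 9.56% held the C/EBP motif, 23.3% the PU.1 core and 14.0% the Runx core in a window of the same length. Camp held none of the 3. A match is a description of the letters, not of binding.

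The values are intensities on a linear scale, and levels and differences below are on the scale log2(intensity + 15.7), where 15.7 is the median of the table (157) divided by 10. Such a difference understates the change of a dim gene. Levels of different probe sets cannot be compared with each other, so all comparisons run between samples for 1 gene. The arrays hold RNA of bulk tissue, in which fewer neutrophils and less of a transcript per neutrophil cannot be told apart. The arrays had been scaled to a common trimmed mean of 500, and their median intensity was 124 to 206 in early lymphomas, 122 to 184 in late lymphomas and 183 to 198 in lymph nodes. The summed intensity of 7 B lineage markers (Cd79a, Cd79b, Pax5, Ebf1, Ms4a1, Blnk and Cd22) was 8490 to 56681 in early lymphomas, 2413 to 61715 in the late lymphomas other than 136 and 137 (named by the number in their label), and 33055 to 57389 in lymph nodes. That of 7 T cell markers was 336 to 3877, 554 to 45394 and 23965 to 36462 in the same order.

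2 arrays stood apart from the other 48 lymphomas, and the late group is described and tested below with and without them. These are late lymphoma 136, with onset at 468 days, and late lymphoma 137, with onset at 567 days. Both lay above all 48 others in each of the 9 measured genes, which holds for 1.05% of the 27094 probe sets kept for testing (those brighter than the median of the array on 10 or more of the 60). The Gapdh ratio of 3-prime to 5-prime control probe sets, a sign of RNA quality, was -0.44 on the log2 scale in late lymphoma 136 and -0.51 in 137, within the -0.61 to -0.30 of the late group.

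**Figure D1:**
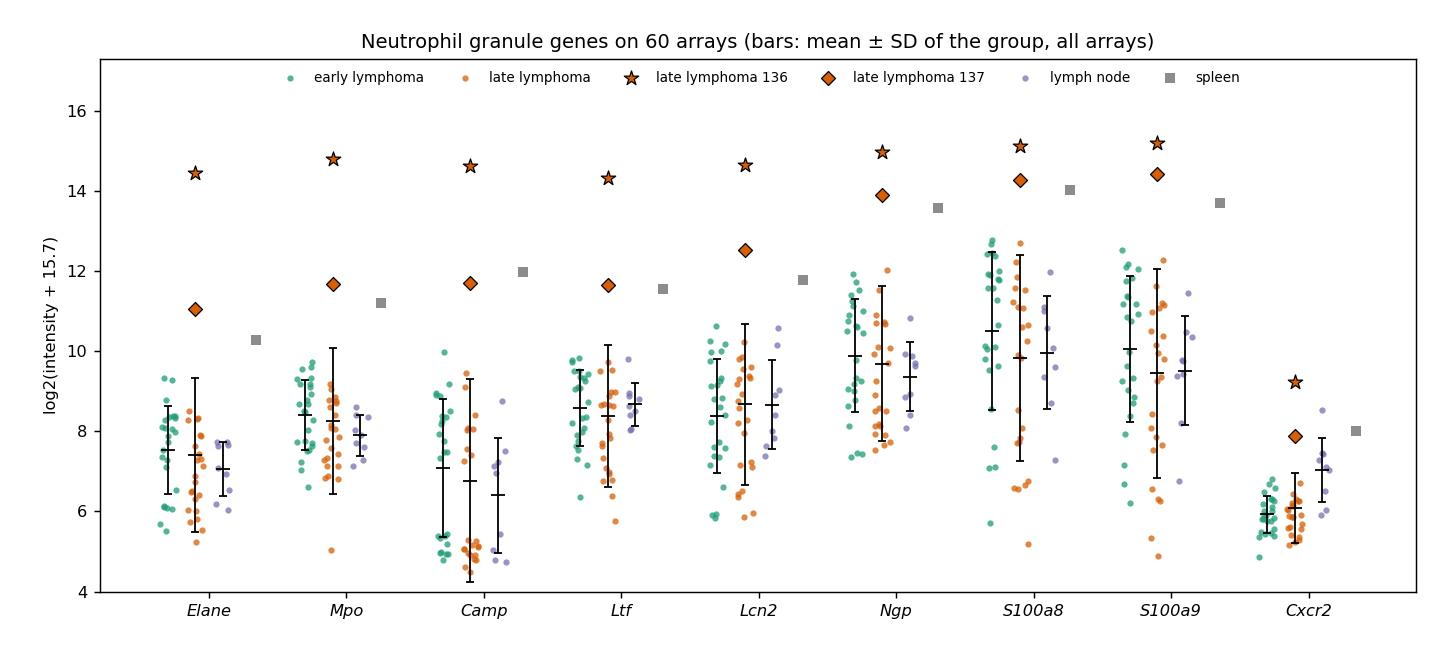
Each point is 1 array and the vertical axis is log2(intensity + 15.7), with genes in the order of primary granule, secondary granule, cytosol and receptor. Bars are the mean ± SD over all arrays of a group, the star is late lymphoma 136, the diamond is late lymphoma 137, and the square is the 1 spleen. Both marked tumours lie above every other lymphoma in all 9 genes.

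Among the primary granule genes, Mpo, which codes for myeloperoxidase and turns hydrogen peroxide into hypochlorous acid, had an intensity of 82.3 to 827 in early lymphomas (median 347). In late lymphomas Mpo ran from 17.4 to 28568 (median 250), and from 125 to 375 in lymph nodes (median 225), with 2355 in the spleen. Without 136 and 137 the highest late lymphoma had 566 (median 217). The groups overlapped, although 12 of 25 early lymphomas and 8 of 25 late lymphomas lay above the highest lymph node. Elane, the neutrophil elastase, gave 29.7 to 621 in early lymphomas (median 218), 22.0 to 22337 in late lymphomas (median 125), 50.2 to 196 in lymph nodes (median 120) and 1228 in the spleen. The highest of the 23 late lymphomas left without 136 and 137 had 348 (median 103). Its high values in early lymphomas also passed the lymph nodes: 14 of 25 lay above the highest node, and 8 of 25 late lymphomas did.

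Among the secondary granule genes, Ltf codes for lactoferrin, which binds iron. Its intensity was 66.7 to 894 in early lymphomas (median 411), 38.4 to 20428 in late lymphomas (median 296), 246 to 874 in lymph nodes (median 383) and 3001 in the spleen. Without the pair the highest late value was 826 (median 229). Only 1 early lymphoma and late lymphomas 136 and 137 passed the highest node. Lcn2, lipocalin 2, binds the iron carriers of bacteria. It gave 41.2 to 1573 in early lymphomas (median 373), 42.5 to 25430 in late lymphomas (median 414), 152 to 1508 in lymph nodes (median 324) and 3503 in the spleen, and without the pair the highest late value was 1181 (median 366). Ngp codes for neutrophilic granule protein. It ran from 149 to 3838 in early lymphomas (median 1391), from 169 to 31936 in late lymphomas (median 596) and from 256 to 1813 in lymph nodes (median 779), with 12194 in the spleen. Without the pair the highest late value was 4110 (median 467). Ngp lay above its array's median on all 60 arrays, and 8 early and 5 late lymphomas passed the highest node.

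Camp codes for the precursor of the antimicrobial peptide cathelicidin, and its values fell into a low and a high class. No array of the 60 lay between 27.8 and 109. The low class held 10 of 25 early lymphomas, 14 of 25 late lymphomas and 4 of 9 lymph nodes, and the spleen was in the high class at 3971. Camp ran from 11.9 to 988 in early lymphomas (median 163), from 6.54 to 25273 in late lymphomas (median 22.9) and from 11.0 to 414 in lymph nodes (median 109). Without the pair the highest late value was 685 (median 20.3). The low values lie in the dim range, where Camp is above its own array's median on only 25 of 60 arrays in all, so they have little order among themselves.

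S100a8 and S100a9 code for the subunits of calprotectin, an abundant cytosolic protein of neutrophils, which is also made by monocytes. The S100a8 probe set has the suffix _s_at, which marks probes that may also bind another transcript. S100a8 had intensities of 37.0 to 6989 in early lymphomas (median 2445), 20.5 to 35657 in late lymphomas (median 1209), 140 to 4023 in lymph nodes (median 1057) and 16619 in the spleen. Without the pair the highest late S100a8 value was 6593 (median 933). S100a9 had 58.8 to 5863 in early lymphomas (median 1707), 13.7 to 37371 in late lymphomas (median 883), 93.4 to 2788 in lymph nodes (median 850) and 13287 in the spleen, and without the pair the highest late value was 4893 (median 634). For each of these genes 6 early and 4 late lymphomas passed the highest lymph node.

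Cxcr2, the chemokine receptor of mature neutrophils, was dim. Its intensity was 13.4 to 96.1 in early lymphomas (median 43.9), 20.2 to 587 in late lymphomas (median 44.8), 44.7 to 352 in lymph nodes (median 122) and 241 in the spleen. Without the pair the highest late value was 88.3 (median 43.1). It lay above its array's median on 4 of 60 arrays, late lymphomas 136 and 137, the spleen and lymph node 9, and so did not pass the filter. The order of the groups differed from that of the granule genes, with lymph nodes above most lymphomas.

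**Figure D2:**
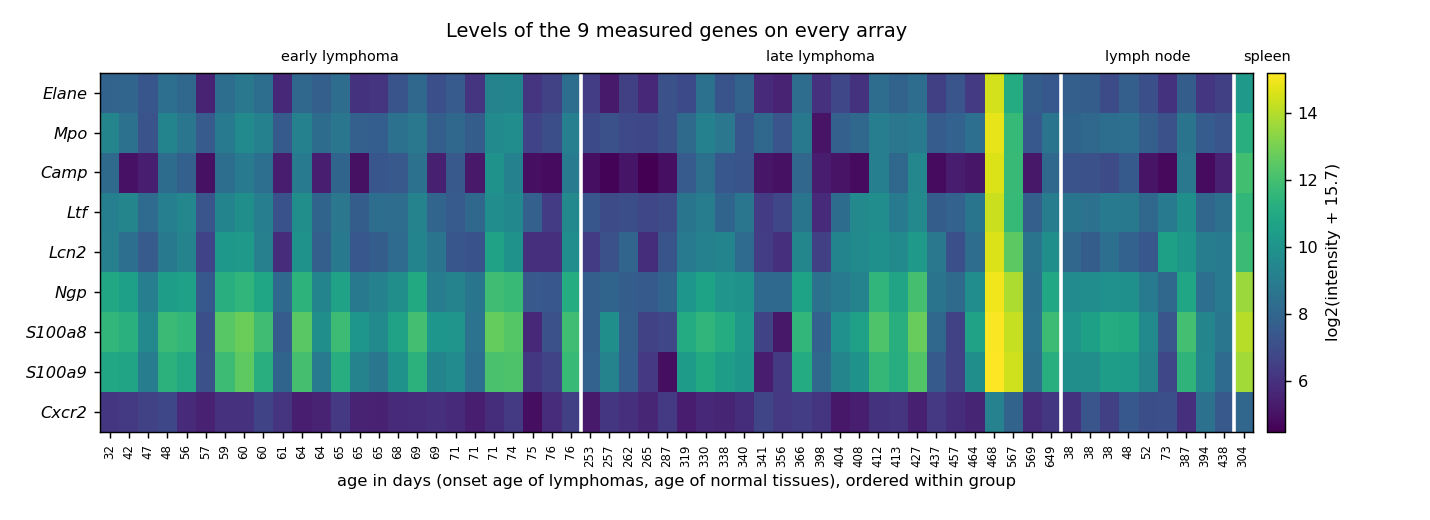
Colour is log2(intensity + 15.7) of the 9 genes (rows) on all 60 arrays (columns), ordered by group and, within a group, by age in days, which is the age of onset for lymphomas. Arrays that are high or low in 1 gene tend to be so in the neighbouring rows, except in the Cxcr2 row, and the bright pair of columns at 468 and 567 days is late lymphomas 136 and 137.

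The spread between tumours was wide. In early lymphomas the SD of the log2 level was 1.98 for S100a8, 1.83 for S100a9, 1.72 for Camp, 1.43 for Lcn2, 1.41 for Ngp, 1.11 for Elane, 0.95 for Ltf and 0.88 for Mpo, where the median SD over all kept probe sets was 0.36. An SD as large as that of S100a8 was found in 0.251% of kept probe sets in this group, and one as large as that of Mpo in 5.99%. The choice of these genes already named their wide spread between tumours, so these shares are descriptions and not a test. In late lymphomas the SDs ran from 1.78 (Ltf) to 2.60 (S100a9), with a median of 0.48 over all kept probe sets. Without late lymphomas 136 and 137 the SD was 0.96 for Mpo, 0.98 for Elane, 1.10 for Ltf, 1.36 for Ngp, 1.38 for Lcn2, 1.66 for Camp, 2.13 for S100a9 and 2.20 for S100a8. In lymph nodes the SDs ran from 0.51 (Mpo) to 1.43 (Camp), with a median of 0.23, so these genes also varied between normal samples.

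The extremes were shared between genes. Among early lymphomas, 23 was the highest in 3 of the 9 genes, 9 in 3 and 24 in 2, while 26 was the lowest in 4 and 28 in 3. Among late lymphomas, 136 was the highest in all 9. With 136 and 137 left out, late lymphoma 130 was the highest in 5 of 9 and 118 in 2. Lymph node 8, from a mouse of 387 days, was the highest node in 6 of 9 genes, and lymph node 6, from a mouse of 73 days, the lowest in 6 of 9. Lymph node 6 was also the highest in Lcn2, at 1508, with S100a8 at 140.

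Spread was compared between late and early lymphomas as the distance of each array from the median of its group. In late lymphomas this distance was larger by 0.54 ± 0.44 (SE) for S100a8, by 0.44 ± 0.27 for Ltf and by 0.38 ± 0.28 for Mpo on the log2 scale, and the estimates of all 8 tested genes were above 0. None of the 8 passed the test (limma with Benjamini-Hochberg adjustment, adjusted p 0.297 to 0.666, 0 of 8 at an unadjusted p under 0.05), where 10.1% of all kept probe sets did (10.1% higher and 0.0369% lower). Without late lymphomas 136 and 137 the estimate was 0.01 ± 0.17 for Mpo and 0.12 ± 0.19 for Ltf, and it was below 0 for Ngp, Camp, Lcn2 and Elane. For those 4 genes the estimates above 0 therefore rest on these 2 arrays, which were set apart for their high values.

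Members varied together within each lymphoma group. Over the 25 early lymphomas the 28 pairs among the 8 tested genes had Pearson correlations of 0.801 (Camp and Ltf) to 0.985 (S100a8 and S100a9), with a median of 0.903. Over the 25 late lymphomas they were 0.743 to 0.976 (median 0.891), and over the 23 without 136 and 137 they were 0.621 to 0.965 (median 0.798). The arrays share their scaling and the tissue around the tumour, so these are descriptions of joint variation.

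The 6 pairs below were tested in each lymphoma group by a permutation test with 1e+05 resamples, two-sided, with Benjamini-Hochberg adjustment over the 12 relations. In early lymphomas (n = 25) Pearson's r was 0.985 for S100a8 with S100a9 (rho 0.983), 0.944 for Ngp with Mpo (0.927), 0.940 for Ngp with Ltf (0.918), 0.884 for Ngp with Camp (0.937) and 0.876 for Elane with Mpo (0.887). Each of these permutation tests gave the smallest p that the resamples allow, 1e-05, with an adjusted p of 1.2e-05 for r and 1.3e-05 for rho. In late lymphomas (n = 25) r was 0.976 for S100a8 with S100a9, 0.969 for Ngp with Camp, 0.921 for Ngp with Ltf, 0.908 for Elane with Mpo and 0.887 for Ngp with Mpo, at the same adjusted permutation p of 1.2e-05. The rho values of these 5 pairs in late lymphomas were 0.975, 0.878, 0.873, 0.760 and 0.902. Leaving out the 2 arrays farthest from the median of the first gene lowered r to 0.628 for Elane with Mpo and to 0.760 for Ngp with Mpo in late lymphomas, and left the other values at 0.836 or more.

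Cxcr2 followed the granule genes less closely. For S100a8 with Cxcr2 the r was 0.517 in early lymphomas (rho 0.392, adjusted permutation p 0.0094 for r and 0.058 for rho). In late lymphomas it was 0.395 (rho 0.082, adjusted permutation p 0.048 and 0.70). Without the 2 farthest arrays r was 0.291 and 0.176, so both relations rest on those arrays. The difference between this pair and the others was not tested.

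Genes outside the members were ranked by their correlation with Mpo, Ngp and S100a8 over the 50 lymphomas, after the mean of each group was subtracted. Those most like each of the 3 included genes of neutrophil granules. Prtn3, the proteinase 3 of primary granules, was first for each of the 3, with r of 0.912 for Mpo, 0.908 for Ngp and 0.816 for S100a8. For Mpo it was followed by Ifitm6 (0.887), the neutrophil collagenase Mmp8 (0.874), the primary granule protease Ctsg (0.857) and the ficolin Fcnb (0.823). For Ngp it was followed by Ifitm6 (0.876), Ctsg (0.863), Slfn4 (0.839) and Mmp8 (0.833), and for S100a8 by the chitinase-like Chil3 (0.809), Slfn4 (0.803), Ifitm6 (0.780) and Ctsg (0.773). Over 48 lymphomas, without 136 and 137, Prtn3 stayed first at 0.801, 0.885 and 0.818. In the Mpo list Fcnb then gave way to Emd (0.584), and Mmp8 fell to 0.663.

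Ngp was also set against the marker levels of other cell types and against 2 technical measures, in a family of 14 relations that was added after the data had been seen. In late lymphomas (n = 25) Ngp rose with the mean level of 15 macrophage and monocyte markers, with r 0.589 and rho 0.669 (adjusted permutation p 0.025 and 0.0048), and with 0.583 without the 2 farthest arrays. In early lymphomas the same r was 0.021 (rho -0.067, adjusted permutation p 0.92 and 0.81). For 7 T cell markers r was 0.432 in late lymphomas (rho 0.532, adjusted permutation p 0.15 and 0.041) and 0.190 in early lymphomas (rho 0.098, adjusted permutation p 0.57 and 0.74). The difference between the groups was not tested. The log2 array median ran with Ngp in early lymphomas, at r 0.487 and rho 0.518 (adjusted permutation p 0.075 and 0.041). The r for the B lineage, platelet, erythroid and Gapdh ratio measures lay between -0.295 and 0.349, with adjusted permutation p of 0.21 or more for r and rho.

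Late lymphoma 136 was read against the median of the 23 late lymphomas other than itself and 137. Its Mpo intensity of 28568 was 131-fold that median, its Elane of 22337 was 218-fold and its Ltf of 20428 was 89.0-fold. Camp was at 25273 in 136 and 3294 in 137, against 6.54 to 685 in the other late lymphomas, whose median lies in the low class, so no fold is given for it. S100a8, at 35657, was 38.2-fold and Ngp, at 31936, was 68.5-fold. Cxcr2, at 587, was 13.6-fold. All 9 genes were at least 10-fold over that median in 136, as 0.871% of all kept probe sets were, and each was also above all 49 other lymphomas, as 6.01% were. Late lymphoma 137 was high in another order: S100a9 was 34.4-fold at 21807, Ngp 32.5-fold at 15182 and S100a8 21.1-fold at 19672. Its primary granule genes were 14.8-fold for Mpo, at 3223, and 20.6-fold for Elane, at 2109. In 137, 8 of the 9 genes were at least 10-fold over it, as 0.771% of all kept probe sets were, and Cxcr2 was 5.07-fold. A single array has no replicate, so these folds have no error and no test.

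Among the 9 genes the 2 tumours differed most in the primary granule genes Elane and Mpo. Late lymphoma 136 exceeded 137 by 10.6-fold in Elane, 8.86-fold in Mpo, 7.67-fold in Camp, 6.38-fold in Ltf and 4.37-fold in Lcn2. In the wider lists the fold was larger in some genes of either kind of granule (Ctsg 19.9, Olfm4 21.9) and smaller in others (Lyz2 2.14, Cybb 2.26), named after their values were seen. Among the 9 genes late lymphoma 136 exceeded 137 by only 1.71-fold in S100a9, 1.81-fold in S100a8 and 2.10-fold in Ngp. The difference between these genes rests on 1 array against 1 array and was not tested.

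Other genes of the pathway came from lists chosen by function. All 9 measured genes of the primary granule and promyelocyte list lay above the 48 other lymphomas in late lymphoma 136, and 5 of 9 in 137, where 6.27% and 5.60% of all kept probe sets did. Prtn3 was at 21141 in 136 and 1358 in 137, against 14.9 to 520 in the other lymphomas, and Ctsg at 15622 and 786, against 3.18 to 290. Of the 14 measured genes of the secondary and gelatinase granule list, 12 were above the other lymphomas in 136 and 8 in 137. Mmp8 was at 11510 and 1601, against 20.3 to 378. Of the 17 mature neutrophil surface and cytokine genes, 12 and 4 were, with the receptor of granulocyte colony-stimulating factor, Csf3r, at 3153 and 1412, against 33.0 to 694. Of the 12 granulocyte regulators, 6 and 1 were, and the 1 in 137 was the chemokine Cxcl12 (10258, highest of the others 5028). Cebpa, the C/EBP factor of early granulocyte precursors, was at 4641 in 136 and at 1086 in 137, with 56.3 to 1382 in the other lymphomas. Gfi1, a repressor needed for neutrophil maturation, was at 1866 in 136 and at 97.6 in 137, with 27.8 to 1733 in the other lymphomas.

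**Figure D3:**
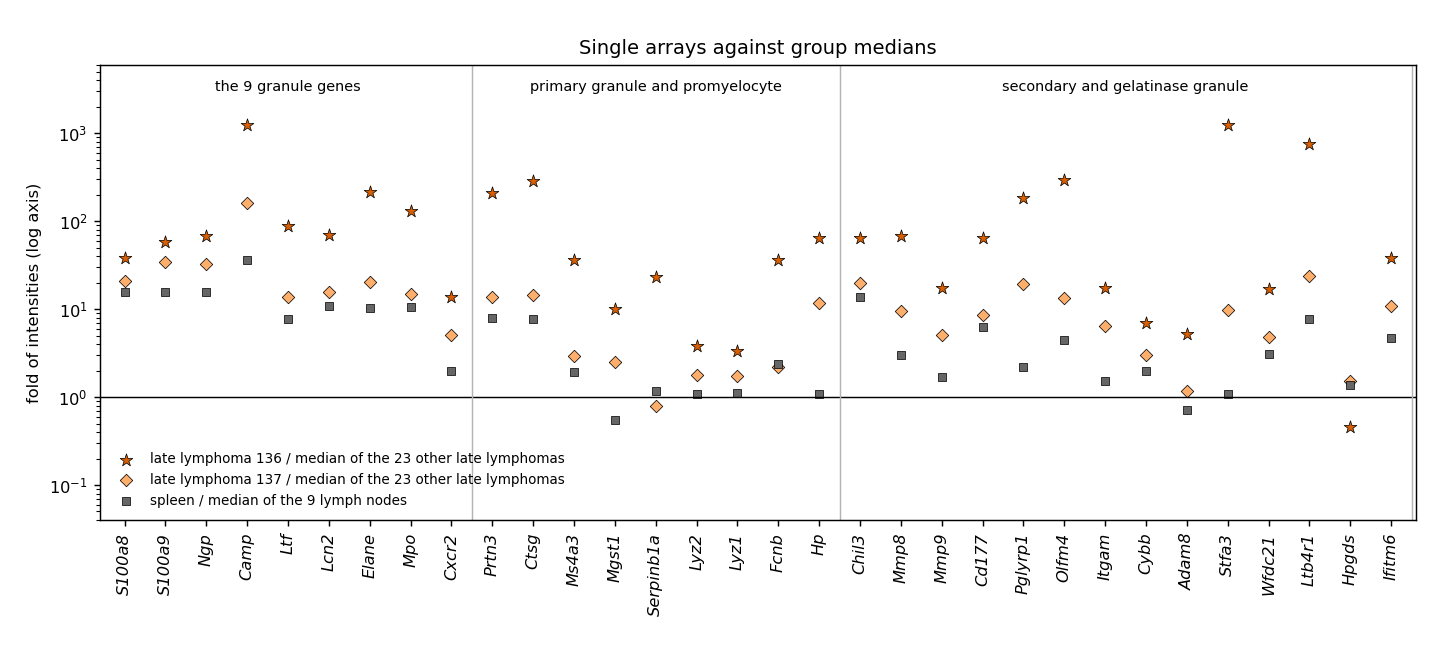
Points give the fold of 1 array over a group median on a log axis, for the 9 granule genes and for the genes of the 2 granule lists: late lymphomas 136 and 137 over the median of the 23 other late lymphomas, and the spleen over the median of the 9 lymph nodes. Late lymphoma 136 is above 137 in every gene shown except Hpgds, at 0.46-fold against 1.53-fold, and folds of genes whose median lies in the dim range, such as Camp, are not measured to their plotted size.

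Markers of other cell types in these 2 tumours were as follows, and their part in the result was not tested. The sum over 15 macrophage and monocyte markers was 38649 in late lymphoma 136 and 45736 in 137, within the 10558 to 58760 of the other late lymphomas. Yet 4 of the 15 lay above all 48 other lymphomas in each tumour, where 6.27% and 5.60% of all kept probe sets did. In 136 these were Adgre1 (5475, highest of the others 2834), Ccr2 (2446 against 743), Fcgr1 (834 against 761) and Cd14 (864 against 756), and in 137 they were Ccr2 (990), Fcgr1 (898), Cd14 (797) and Cx3cr1 (780 against 777). The erythroid sum (11 genes) was 15304 and 4016, within 2875 to 17624. In 136 this sum came mostly from Car2 (10690, highest of the 48 other lymphomas 4552) and Tfrc (3797). Slc4a1, at 3.09, was below all 48 in 136, and 2 of the 11 genes were below all 48 in 137. The B lineage sum was 9765 and 18749, within the range of the others, and the T cell sum was 1845 and 7081, also within it. Of the 7 B lineage genes 1 was below all 48 other lymphomas in 136, which was Cd22 (308, lowest of the others 458). The haematopoietic progenitor sum (5 genes) was 4773 in 136, above the 658 to 4404 of the others, and 1480 in 137, and Kit (1952) and Cd34 (2450) were above all 48 others in 136. Flt3 of the same list went the other way in 136 (25.7, lowest of the others 30.2), below all 48. Meis1 (163) and Gata1 (181) were within the range of the others in 136. The eosinophil sum (5 genes) was 2389 in 136 and 6607 in 137, both above the 101 to 1366 of the others, and each sum came mostly from 1 gene. This was Siglecf in 136, at 1990, and Il5ra in 137, at 6051, while the eosinophil peroxidase gene Epx was at 66.2 and 104. The platelet and megakaryocyte sum (6 genes) was 2228 in 136 and 6201 in 137, the latter above the 969 to 2733 of the others with Pf4, Ppbp and Itga2b (3 of 6) over all 48, and the basophil and mast cell sum (7 genes) was 1083 and 1288, within 514 to 1325. No gene of any list was at 0 on any array.

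The spleen held more of 8 of the 9 genes than every lymph node, against 14.7% of all kept probe sets. Its fold over the median lymph node was 36.4 in Camp, 15.7 in S100a8, 15.6 in Ngp and in S100a9, 10.8 in Lcn2, 10.5 in Mpo, 10.2 in Elane and 7.84 in Ltf. Cxcr2 was 1.97-fold and lay below lymph node 9. A fold of 5 or more, as in 8 of the 9 genes, was found in 0.295% of all kept probe sets. Beside this the spleen had an erythroid sum of 45198, where the nodes had 3052 to 4423, and a platelet sum of 29452, where they had 1468 to 2052. Its macrophage sum was 60733 against 38711 to 56079. With 1 spleen there was no replicate and no test.

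Late and early lymphomas did not differ in any granule gene by the test. The late minus early difference in log2 level was -0.68 ± 0.62 (SE) for S100a8 (95% interval -1.93 to 0.57), -0.60 ± 0.61 for S100a9, -0.20 ± 0.46 for Ngp (-1.12 to 0.72), -0.19 ± 0.39 for Ltf, -0.31 ± 0.59 for Camp and 0.29 ± 0.47 for Lcn2. It was -0.12 ± 0.43 for Elane and -0.16 ± 0.39 for Mpo (-0.93 to 0.62). None of the 8 passed (limma, adjusted p 0.456 to 0.865, 0 of 8 at an unadjusted p under 0.05), while 22.0% of all kept probe sets did (9.58% higher and 12.4% lower). The intervals of the 8 genes reach down to between -0.66 (Lcn2) and -1.93 (S100a8) and up to between 0.57 (S100a8) and 1.23 (Lcn2), so the test does not show that the groups are alike. The median of the 8 estimates was -0.20, and that of all kept probe sets 0.00.

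Each estimate moved down when late lymphomas 136 and 137 were left out, as it must, since both lie above the other late lymphomas in every gene. The difference was then -1.10 ± 0.58 for S100a8, -1.07 ± 0.55 for S100a9, -0.86 ± 0.47 for Camp, -0.61 ± 0.38 for Ngp, -0.59 ± 0.28 for Ltf, -0.59 ± 0.26 for Mpo and -0.59 ± 0.29 for Elane. Lcn2 turned to -0.14 ± 0.39. Still none of the 8 passed (limma, adjusted p 0.102 to 0.838), where 17.6% of all kept probe sets did. The count at an unadjusted p under 0.05 is not reported here for this fit.

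**Figure D4:**
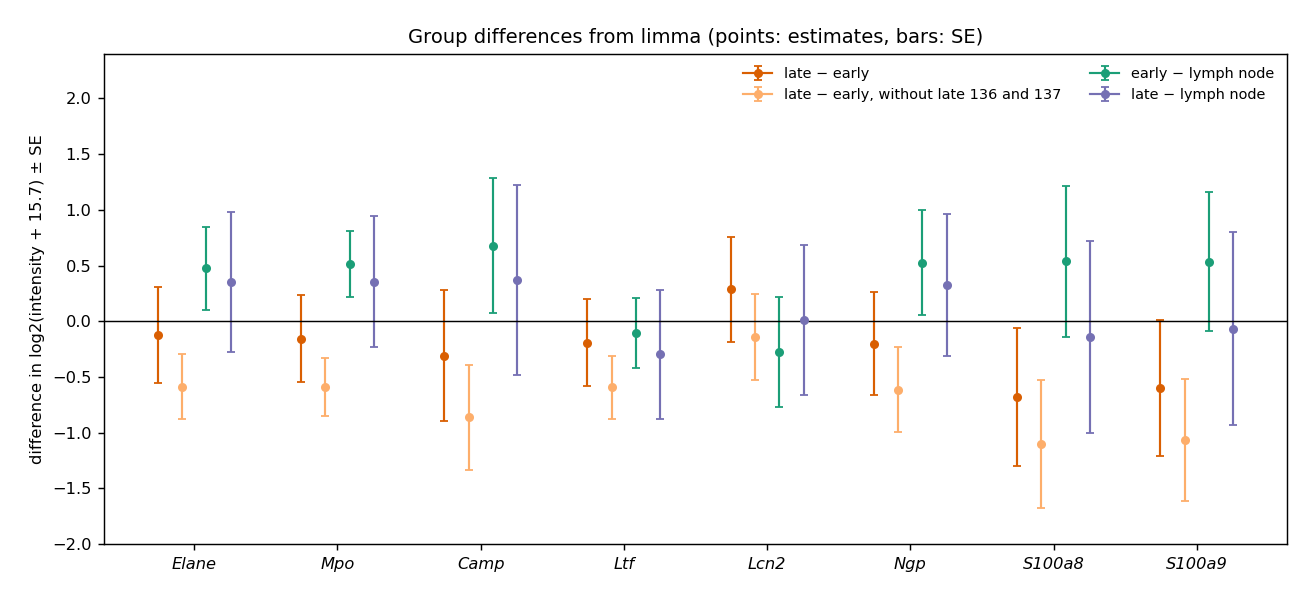
Points are limma's estimates of the difference in log2(intensity + 15.7) for the 8 tested genes and bars are standard errors, for late minus early lymphoma with and without late lymphomas 136 and 137 (25 or 23 against 25 arrays) and for each lymphoma group minus the 9 lymph nodes. Leaving out the 2 tumours, which are the highest of the late group in each gene, must move each late minus early estimate down. The estimates then lie between -1.10 and -0.14.

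The other lists of the pathway held calls between late and early lymphomas, where 9.58% of all kept probe sets were higher and 12.4% lower. Of 9 tested primary granule genes, 1 was lower, the protease inhibitor Serpinb1a (-1.47 ± 0.48, adjusted p 0.024). Of 11 secondary granule genes, 3 were higher: Cybb, the catalytic subunit of the phagocyte oxidase (1.46 ± 0.37), Itgam, the integrin CD11b (0.76 ± 0.26), and Adam8 (0.46 ± 0.15). Of 15 mature neutrophil genes, 6 were higher, with Slpi (1.51 ± 0.43), the cytokine receptor chain Csf2rb (1.11 ± 0.29), Il1b (0.60 ± 0.20) and Cxcr4 (0.41 ± 0.12) among them. Of 10 regulators, Stat3 (0.57 ± 0.15), Cebpd (0.66 ± 0.25) and Cebpb (0.58 ± 0.21) were higher and Gfi1 (-1.02 ± 0.38) was lower. Cybb, Itgam, Csf2rb, Slpi and Il1b are also expressed by macrophages, and 6 of 15 macrophage and monocyte markers were higher in late lymphomas. The part of macrophages in these calls was not tested.

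When late lymphomas 136 and 137 were left out, 1 of 1, 2 of 3, 3 of 6 and 2 of 4 of these calls remained, in the order of the lists, where 17.6% of all kept probe sets were called, and Mgst1 of the primary list was newly lower (-0.48 ± 0.17, adjusted p 0.038). Itgam then stood at 0.51 ± 0.20 (limma, adjusted p 0.069), Il1b at 0.52 ± 0.19 (0.056), Cebpb at 0.44 ± 0.20 (0.11) and Cebpd at 0.50 ± 0.22 (0.11). With each array centred on its median 3 of the 6 mature neutrophil calls and 2 of the 4 regulator calls remained.

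Between early lymphomas and lymph nodes none of the 8 tested genes was called as deposited, and the call depended on the scaling. The early minus lymph node difference was 0.68 ± 0.60 for Camp, 0.54 ± 0.67 for S100a8, 0.54 ± 0.63 for S100a9, 0.53 ± 0.47 for Ngp, 0.51 ± 0.30 for Mpo (95% interval -0.09 to 1.11) and 0.48 ± 0.37 for Elane. It was -0.10 ± 0.32 for Ltf and -0.28 ± 0.49 for Lcn2. None passed (limma, adjusted p 0.128 to 0.789, 0 of 8 at an unadjusted p under 0.05), where 67.0% of all kept probe sets did. The 95% intervals of S100a8 and Camp reach up to 1.90, so the test does not show that the groups are alike. With quantile normalization the values were 0.84 ± 0.28 for Mpo (adjusted p 0.0075) and 0.80 ± 0.36 for Elane (0.047), and with each array centred on its median they were 0.85 ± 0.28 (0.0070) and 0.82 ± 0.36 (0.043), so 2 of the 8 genes passed under each scaling, where 69.8% and 69.0% of all kept probe sets did. The median difference over all kept probe sets was -0.12 as deposited, 0.08 after quantile normalization and 0.22 after centring. Relative to it, Mpo was 0.63 higher as deposited, 0.76 higher after quantile normalization and 0.63 higher after centring. The share of calls that were higher in early lymphomas moved with it, from 41.8% to 55.0% and 65.4%.

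Late lymphomas and lymph nodes gave differences of 0.37 ± 0.85 for Camp, 0.35 ± 0.59 for Mpo, 0.35 ± 0.63 for Elane, 0.33 ± 0.64 for Ngp, 0.01 ± 0.67 for Lcn2, -0.07 ± 0.87 for S100a9, -0.14 ± 0.86 for S100a8 and -0.30 ± 0.58 for Ltf. None of the 8 passed (limma, adjusted p 0.639 to 0.991, 0 of 8 at an unadjusted p under 0.05), where 53.1% of all kept probe sets did (21.7% higher and 31.4% lower). With late lymphomas 136 and 137 left out all 8 estimates were below 0, from -0.08 ± 0.33 for Mpo to -0.70 ± 0.37 for Ltf, and none passed, where 55.2% of all kept probe sets did. Unadjusted p-values of that fit are not reported here. The share of calls that were higher in late lymphomas was 40.9% as deposited, 55.4% after quantile normalization and 66.1% after centring. Both comparisons use the same 9 lymph nodes.

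Cxcr2 stood apart from the granule genes here. It was tested only with no filter on low values, where it was lower in early lymphomas than in lymph nodes by a log2 difference of -1.11 ± 0.22 (limma, adjusted p 4.9e-05), when 48.4% of all probe sets were called. In late lymphomas it was -0.95 ± 0.32 (adjusted p 0.017), and between late and early lymphomas it was 0.16 ± 0.19 (adjusted p 0.64). None of the 25 early lymphomas lay above the highest node. These levels lie in the dim range, and the difference between Cxcr2 and the granule genes was not tested.

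As deposited, the other lists held more genes that were lower in lymphomas than higher, and the scaling moved this balance. Against lymph nodes, early lymphomas were lower in 4 of 9 primary granule genes, among them Mgst1 (-1.35 ± 0.20) and the lysozymes Lyz2 (-1.09 ± 0.20) and Lyz1 (-0.84 ± 0.17). They were lower in 5 of 11 secondary granule genes, with Pglyrp1, a peptidoglycan binding protein of the granules, at -3.21 ± 0.42, Cybb at -2.18 ± 0.30, Adam8 at -1.88 ± 0.14 and Itgam at -1.47 ± 0.18. Of 15 mature neutrophil genes 9 were lower, with Slpi at -2.85 ± 0.45, Mcemp1 at -2.31 ± 0.38, Csf2rb at -2.11 ± 0.20 and Csf2ra at -1.49 ± 0.16, and Padi4 was higher (2.06 ± 0.51). Of 10 regulators 6 were lower, with Cxcl12 (-2.83 ± 0.30), the chemokine that holds granulocytes in the marrow, Cebpd (-2.65 ± 0.25), Cebpa (-2.53 ± 0.19) and Stat3 (-1.94 ± 0.13), and Gfi1 was higher (1.35 ± 0.28). In the same comparison 39.0% of all kept probe sets were lower and 28.0% higher.

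Of the calls in early lymphomas, 4 of 4 primary, 4 of 5 secondary, 8 of 10 mature and 7 of 7 regulator calls remained after quantile normalization, and 3, 4, 7 and 7 after centring. The counts of higher and lower genes were then 2 and 4 in the primary list, 3 and 4 in the secondary, 2 and 7 in the mature and 1 and 6 in the regulator list, and after centring 2 and 3, 3 and 4, 2 and 6, and 1 and 6. The genes that became higher under both scalings were named after their values were seen. After quantile normalization they were Fcnb (0.53 ± 0.14) and Ms4a3 (0.59 ± 0.11) of the primary list, Chil3 (1.21 ± 0.49), Cd177 (0.76 ± 0.34) and Hpgds (0.44 ± 0.14) of the secondary list, and Clec4d (0.54 ± 0.24) of the mature list. Lyz1, Lyz2, Cybb, Csf2ra and Cebpa are also made by macrophages, and 13 of 15 macrophage and monocyte markers were lower in early lymphomas. Their part in these falls was not tested.

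In late lymphomas 3 of 9 primary granule genes were lower than in lymph nodes, which were Mgst1 (-1.65 ± 0.33), Lyz2 (-1.35 ± 0.27) and Lyz1 (-1.10 ± 0.25), and 2 of 11 secondary granule genes were, which were Pglyrp1 (-2.84 ± 0.66) and Adam8 (-1.42 ± 0.22). Of 15 mature neutrophil genes 3 were lower, with Mcemp1 at -2.31 ± 0.43, Il1r2 at -1.03 ± 0.32 and Csf2ra at -0.87 ± 0.34. The arginine deiminase Padi4, which opens neutrophil chromatin, was higher (3.04 ± 0.40). Of 10 regulators 5 were lower, with Cxcl12 at -3.39 ± 0.52, Cebpa at -2.24 ± 0.38, Cebpd at -1.98 ± 0.34 and Stat3 at -1.37 ± 0.21. Over all kept probe sets 31.4% were lower and 21.7% higher, and the macrophage and monocyte list had 8 of 15 lower and 1 higher. Without late lymphomas 136 and 137 the lower counts were 4, 4, 8 and 5, in the order of the 4 lists from primary granule genes to regulators. In that fit 55.2% of all kept probe sets were called, and 40.8% of those calls were higher. With all 25 late lymphomas, 3 of 3, 2 of 2, 3 of 4 and 5 of 5 calls remained after quantile normalization. After centring 3, 2, 3 and 4 did. Il1r2 was lost after quantile normalization (limma, adjusted p 0.051), and Csf2ra (0.115) and the regulator Runx1 (0.0985) after centring. Newly called were Serpinb1a and Csf2rb, lower after quantile normalization, and Clec4d and Cxcl1, higher after centring.

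Old and young lymph nodes were compared as the background of age. Here 3 nodes of 387 to 438 days stood against 6 of 38 to 73 days. The old minus young difference was 1.05 ± 0.59 for Lcn2 (limma, adjusted p 0.40), -0.42 ± 0.41 for Elane, 0.28 ± 0.80 for S100a9 and 0.05 ± 0.51 for Ngp. None of the 8 genes passed (0 of 8 at an unadjusted p under 0.05), where 1.42% of all kept probe sets did (0.853% higher and 0.572% lower). The Lcn2 intensities were 461, 504 and 1125 in the old nodes, and 5 of the 6 young nodes lay between 152 and 324 with lymph node 6 at 1508. Each node was also left out in turn, and a member passed only in the fit without lymph node 6. The Lcn2 difference was then 1.50 ± 0.30 (limma, adjusted p 0.042). Lymph node 6 has the highest Lcn2 of the young nodes, so leaving it out was bound to raise this difference. The share of all kept probe sets called in that fit is not reported here.

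Within the late group the slope of each of the 8 genes on the age of onset was above 0, and none passed the test over all probe sets. Per doubling of the age of onset the log2 level changed by 3.33 ± 1.22 for S100a9, 3.12 ± 1.22 for S100a8, 3.06 ± 0.88 for Lcn2, 2.87 ± 1.22 for Camp, 2.85 ± 0.87 for Ngp, 2.39 ± 0.82 for Ltf, 2.30 ± 0.92 for Elane and 2.14 ± 0.87 for Mpo. The adjusted p was 0.116 to 0.183 (limma), so none of the 8 was called, where 0.0111% of all kept probe sets were, 3 in number and all with a downward slope. All 8 had an unadjusted p under 0.05 (0.0018 to 0.026), which 11.1% of all kept probe sets also had with an upward slope. The 5 late lymphomas of earliest onset, at 253 to 287 days, had Ngp intensities of 169 to 228, and those of later onset ran from 263 to 31936. This cut and gene were chosen after the values were seen, and other genes did not divide there. S100a8 was at 890 at 257 days and at 20.5 at 356 days, and Lcn2 was at 234 at 262 days and at 46.9 at 356 days.

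The late slopes rest in part on late lymphomas 136 and 137. Without both the slope was 1.73 ± 0.69 for Ngp, 1.97 ± 0.68 for Lcn2, 2.06 ± 1.14 for S100a9, 1.99 ± 1.18 for S100a8, 1.27 ± 0.93 for Camp, 1.32 ± 0.57 for Ltf, 0.99 ± 0.54 for Elane and 0.92 ± 0.52 for Mpo, with adjusted p of 0.371 to 0.557. Without the tumour of 649 days it was 3.16 ± 0.97 for Ngp (adjusted p 0.067). Unadjusted p-values of these fits are not reported here. In early lymphomas the slope was -1.31 ± 1.26 for S100a8, -0.83 ± 0.90 for Ngp and 0.18 ± 1.12 for Camp, and none of the 8 passed (limma, adjusted p 0.456 to 0.942, 0 of 8 at an unadjusted p under 0.05), where 8.98% of all kept probe sets did (2.00% upward and 6.98% downward). The difference between the slopes of the groups was not tested.

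**Figure D5:**
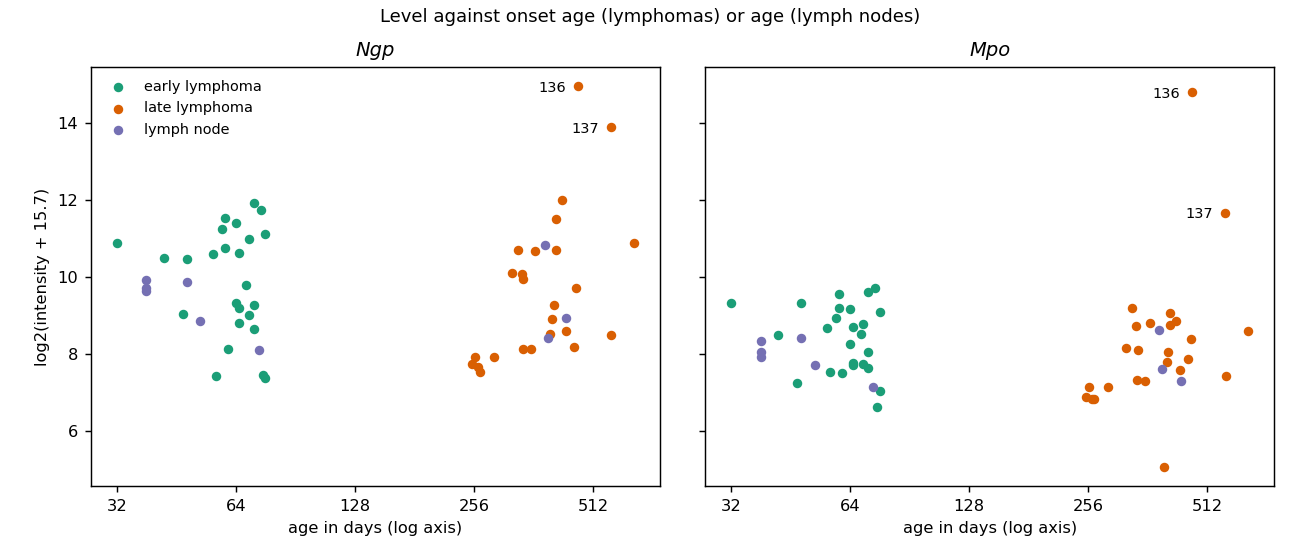
Points are single arrays, with age of onset (lymphomas) or age (lymph nodes) in days on a log axis and log2(intensity + 15.7) of Ngp (left) and Mpo (right) on the vertical axis. Late lymphomas 136 and 137 are labelled, and lymphomas of like age of onset span several log2 units in both groups.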

How the data were processed

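The authors deposited 1 table of intensities for all 60 arrays, on a linear scale, made with MAS5 per the submitters' processing notes, with no version given there. The trimmed mean of every array in it is 500, and the number of arrays limits the precision. Probe sets were named through GEO's platform annotation: 34958 name 1 gene, 932 several and 9211 none, and 34754 of the first kind matched a RefSeq gene (GRCm38.p6, used for names and promoters). Control probe sets (64) were left out.

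From these intensities log2(intensity + 15.7) was computed. A probe set was kept where it exceeded the array median on 10 or more arrays (27094). Groups were compared with limma 3.58.1 (lmFit and eBayes with trend) in R 4.3.3, fitted on all kept probe sets, with Benjamini-Hochberg adjustment at 0.05 over all of them. Slopes use log2 of the onset age, and spread is the absolute deviation from the group median. Fits were tested on simulated data. Correlations and permutation tests used numpy 2.4.6 with ranks from scipy 1.17.1, and figures used matplotlib 3.10.9 (Python 3.11.15, pandas 2.3.3). The ranking of genes outside the members and the correlations of same-numbered arrays were computed in R. Members and lists were chosen with earlier results of these data known. Named genes of the other lists were those of smallest adjusted p in each comparison, up to 4 a list, and genes named for their level in late lymphomas 136 and 137 were chosen after their values were seen. The alternatives changed the pseudocount, the filter, the scaling, the covariates, the variance prior and the samples. Leaving out late lymphomas 136, 137 or the tumour of 649 days was chosen after seeing the data.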

Additional observations from a re-analysis of the deposited data

Results flagged for a closer look

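The single spleen entered none of the main tests and was included only as an alternative in the comparisons with lymph nodes. Its levels of 8 genes lay above those of every lymph node. On the scale log2(intensity + 15.7) its level was 14.02 for S100a8, 13.70 for S100a9, 13.58 for Ngp, 11.96 for Camp, 11.56 for Ltf, 11.78 for Lcn2, 10.28 for Elane and 11.21 for Mpo. Cxcr2 was the exception. The spleen also had higher erythroid and platelet marker sums than every lymph node, and their part in these levels was not tested.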

How the results depend on the processing

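Of 1339 member values and counts under alternatives, 1264 kept their direction and their side of the threshold and 57 changed sign, the latter with adjusted p of 0.42 or more. The cause of each change was not tested.

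Among the 8 or 9 genes, the count that passed between early lymphomas and lymph nodes was 0, and became 2 with quantile normalization, 2 with centring on the array median, 1 with no filter (Cxcr2) and 5 with the number in the title as a replicate block. For early lymphomas against lymph nodes, 67.0% of all kept probe sets passed as deposited, 69.8% with quantile normalization and 69.0% with centring. With no filter 48.4% of all probe sets did. Late lymphomas against lymph nodes gave 1 with no filter (Cxcr2). The shares for that fit and for the replicate block are not reported here, so these counts cannot be set against them. With the replicate block S100a8 was at 1.14, S100a9 at 1.11, Ngp at 0.91, Elane at 0.80 and Mpo at 0.80. The numbers belong to different mice, and the correlations of same-numbered arrays were -0.108 to 0.087, so they do not pair the samples.

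For early lymphomas against lymph nodes, Ltf turned to 0.20 with quantile normalization, 0.24 with centring and 0.29 with the replicate block, and ran from -0.18 to 0.036 with each node left out. Lcn2 turned to 0.065 with centring, 0.075 with the young nodes alone and 0.16 with the replicate block.

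For late lymphomas against lymph nodes, S100a9 was 0.058 with a larger pseudocount and 0.21 with centring, S100a8 was 0.14 with centring, and Lcn2 was -0.029 with a smaller pseudocount, -0.037 with the RNA ratios and -0.69 with the old nodes alone. With the spleen included Ngp was -0.10, Camp -0.19 and Lcn2 -0.30. With each node left out, S100a8 ran from -0.48 to 0.11, S100a9 from -0.41 to 0.18 and Lcn2 from -0.15 to 0.25. Without late lymphomas 136 and 137 Ngp was -0.086, Camp -0.19, Lcn2 -0.42, Elane -0.11 and Mpo -0.079. Lcn2 in late versus early lymphoma was then -0.14, and the spread difference was -0.029 for Ngp, -0.18 for Camp, -0.016 for Lcn2 and -0.055 for Elane.

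For old against young nodes, the count was 0 to 1 with each node left out, and the range was -0.92 to 0.73 for S100a8, -0.60 to 1.02 for S100a9, -0.67 to 0.55 for Ngp, -1.33 to 0.66 for Camp, -0.42 to 0.47 for Ltf and -0.48 to 0.18 for Mpo. Camp was 0.044 with a larger pseudocount and 1.21 with the RNA ratios, and Mpo was 0.75 with the RNA ratios. The early slope of Elane was 0.031 with centring. The r of S100a8 with Cxcr2 in late lymphomas was 0.347 with a smaller pseudocount and 0.388 with quantile normalization. Another probe set of a gene could not be tried, since each has 1. Dim signal limits Camp and Cxcr2.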

Other observations

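The 2 tumours high in granule genes also differed in genes of other lineages, named here after their values were seen. In late lymphoma 136 Myc was at 4964, below all 48 lymphomas other than 136 and 137 (lowest 8390) and above the lymph nodes (880 to 1606), and in 137 it was at 10221. The surrogate light chain genes of B cell precursors were high in 136, with Igll1 at 9607 and Vpreb1 at 8970, where the highest of the 48 had 3220 and 3040. In 137 the immunoglobulin heavy chain gene Ighm was at 35402, above the 110 to 31670 of the 48, and in 136 it was at 3336. These are single arrays with no replicate.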
